A study of Mus musculus with 2 samples.

Results

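Pi16-low dermal fibroblasts were studied in sections of mouse back skin. They were chosen by the measured transcripts of each cell, as cells in which the matrix genes Lum, Mfap4 and Dpt together made up at least 10% of the transcripts and Pi16 made up less than 4%. Further limits kept out other cell types: less than 5% of transcripts from the epithelial genes Trim29, Dsc3, Serpinb5 and S100a14, less than 10% from Car3, less than 30% from the muscle genes Ttn, Pvalb, Actn3, Pygm and Des, at most 2 transcripts from the endothelial genes Vwf, Plvap, Tie1 and Kdr, and at most 1 from the hair papilla genes Acan, Sox2 and Sez6l. Of 59588 cells with at least 20 transcripts, 6272 met the rule. There were 5636 of 44282 cells in the SspA+HDM section and 636 of 15306 in the mock section, and no cell identifier occurred in both.

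Both sections came from C57BL/6 mice, from dorsal skin cleared of hair by shaving and depilation, and were cut at 5 µm from paraffin blocks of fixed tissue at day 7 after treatment. The SspA+HDM skin received SspA and HDM on its surface, and the mock skin received PBS on its surface. The labels do not spell out the agents; SspA is commonly the name of a serine protease of Staphylococcus aureus and HDM that of house dust mite. RNA was read in place by Xenium In Situ, which decodes single transcripts of a chosen panel, here 379 genes, and assigns them to cell outlines. There was 1 section per treatment, so the differences below could not be checked against replicates or tested, and all intervals are 95% intervals for counting error only. Each section held 2 separate strips of skin. Their values are given side by side, but the labels do not say whether they came from different animals, and they are not replicates.

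Dermal fibroblasts build and turn over the collagen and elastic matrix of the skin, and they differ with depth: papillary fibroblasts lie under the epidermis, reticular fibroblasts deeper, and adventitial and fascial fibroblasts around vessels and along the fascia. In mice Pi16, a peptidase inhibitor of the cell surface, marks the adventitial and fascial kind, which is often described as a progenitor-like state. Lumican (Lum) is a small leucine-rich proteoglycan on collagen fibrils, Mfap4 binds elastic microfibrils, and dermatopontin (Dpt) helps collagen fibrils to form.

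The 3 marker genes chose the cells, so their levels are a description. Levels are transcripts summed over the Pi16-low fibroblasts of a section per 1000000 transcripts of the panel in those cells (CPM). Lum stood at 95567 CPM in SspA+HDM and 79773 CPM in mock, Mfap4 at 46587 CPM in SspA+HDM and 43164 CPM in mock, and Dpt at 36328 CPM in SspA+HDM and 33321 CPM in mock. All 3 were detected together in 69.6% of SspA+HDM members and 50.9% of mock members. The median share of a member's transcripts from the 3 genes was 16.9% in SspA+HDM and 14.7% in mock. Just inside the limit, at 10% to 12%, were 903 SspA+HDM and 162 mock cells, and just outside it, at 8% to 10%, were 942 SspA+HDM and 165 mock cells.

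Pi16 differed between the sections within the limit. No Pi16 transcript was found in 64.5% of SspA+HDM members and 33.2% of mock members. Just inside the Pi16 limit, at 3% to 4%, were 273 SspA+HDM and 151 mock cells, and just outside it, at 4% to 5%, were 204 SspA+HDM and 147 mock cells. A mock member was therefore more often a cell near the limit, and for the genes whose ratio moved most with no limit on Pi16 that value is given beside the ratio.

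The Pi16-low cells held 467211 transcripts in SspA+HDM and 47447 in mock, so mock sets the precision of every ratio. The median member had 71 transcripts in SspA+HDM and 62 in mock, and the median outline was 124 µm² in SspA+HDM and 178 µm² in mock. Transcripts per 100 µm² of outline were 59.9 in SspA+HDM and 37.5 in mock. Outlines were smaller over all cells too, with a median of 90.3 µm² in SspA+HDM and 135 µm² in mock. Over all cells the transcripts per 100 µm² were likewise higher in SspA+HDM, at 153 against 92.4 in mock.

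Transcripts of other cell types lay inside the outlines of members in both sections. Keratinocyte genes outside the rule summed to 22007 CPM in SspA+HDM members and 16903 CPM in mock members, against 131013 CPM in the other SspA+HDM cells and 69864 CPM in the other mock cells. The list of macrophage or monocyte genes was higher in members than in the other cells of the section, at 20999 against 4621 CPM in SspA+HDM and at 18168 against 3741 CPM in mock. At least 3 transcripts of 5 macrophage genes were found in 21.5% of SspA+HDM members and 16.4% of mock members. Smooth muscle and mural genes went the other way: at least 10% of the transcripts came from them in 6.19% of SspA+HDM members and 15.9% of mock members. The T cell list summed to 4311 CPM in SspA+HDM members and 2909 CPM in mock members, and the mast cell gene Cpa3 stood at 4037 CPM in SspA+HDM members and 2866 CPM in mock members. No gene of the marker lists of other cell types was at 0 in SspA+HDM members. In mock members the granulocyte gene Cxcr2 and the hair papilla gene Sez6l, which the rule limits, were at 0.

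Pi16-low fibroblasts took a larger share of the SspA+HDM section. They were 12.7% of its cells (exact Clopper-Pearson interval 12.4% to 13.0%) and 4.16% of the mock section's cells (3.84% to 4.48%), a ratio of 3.06 (2.82 to 3.33). By strip the shares were 13.1% and 12.4% in SspA+HDM against 4.20% and 4.11% in mock. The strips of a treatment lay close together and far from those of the other. Along the strips there were 379 members per mm in SspA+HDM and 47.0 per mm in mock, an 8.06-fold ratio.

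Cells that met the same rule but had 4% or more Pi16 were the mirror image. They were 1.21% of SspA+HDM cells and 8.77% of mock cells, 7.23-fold lower in SspA+HDM, with 36.1 per mm in SspA+HDM and 99.2 per mm in mock. With both sets joined, fibroblasts of the rule were 13.9% of SspA+HDM cells and 12.9% of mock cells, a ratio of 1.08 (1.03 to 1.14). Per mm of strip the joined set was 2.84-fold higher in SspA+HDM. Of the joined set, 58.9% in SspA+HDM and 10.7% in mock had no Pi16 transcript at all. The difference in the share of Pi16-low cells thus went with the division of fibroblasts at the Pi16 limit, and the share of all fibroblasts of the rule differed little.

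**Figure D1:**
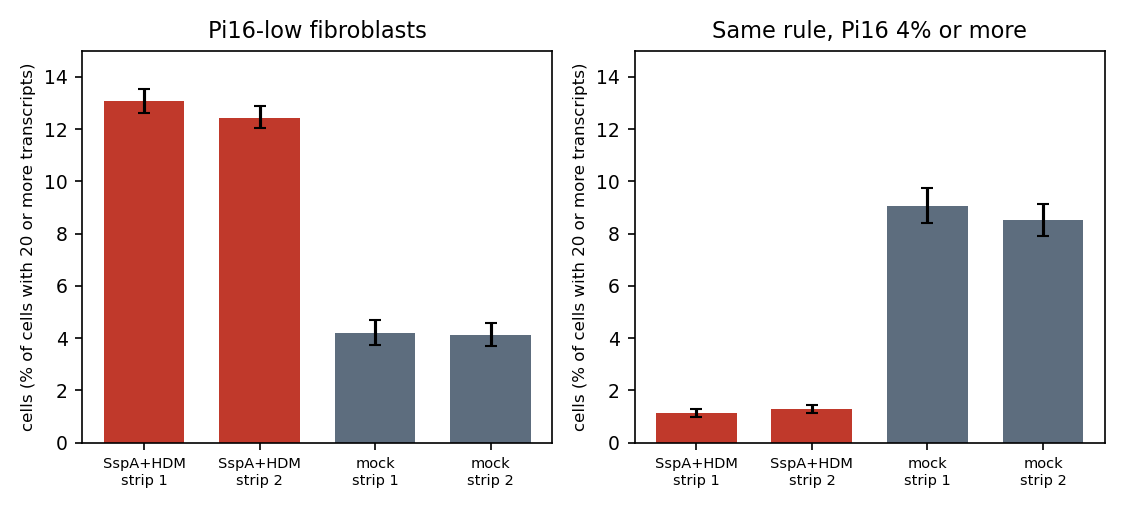
Share of cells with at least 20 transcripts (vertical axis, %) that were Pi16-low fibroblasts (left) or met the same rule with 4% or more Pi16 (right), in each strip of the SspA+HDM and mock sections. Bars are shares and error bars exact 95% intervals for counting error; Pi16-low cells stand at 13.1% and 12.4% in the SspA+HDM strips and at 4.20% and 4.11% in the mock strips, and the other set is higher in mock.

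Within strips, no part of an SspA+HDM strip had a share near that of a mock strip. In the left and right parts of the SspA+HDM strips it was 12.6% and 13.4% in strip 1 and 13.2% and 11.9% in strip 2. In the mock strips it was 3.83% and 4.58% in strip 1 and 3.64% and 4.60% in strip 2.

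Members lay close to epithelium. Epithelial cells are here those with at least 8% of transcripts from the 4 epithelial genes, which takes in hair follicles as well as epidermis. The median member was 17.9 µm from the nearest one in SspA+HDM and 15.7 µm in mock, with 17.9 and 17.9 µm in the SspA+HDM strips against 16.1 and 15.4 µm in the mock strips. With no limit on Pi16 the direction turned, and the difference of medians, SspA+HDM minus mock, was -0.96 µm. Members were nearer to epithelium than to skeletal muscle in 94.1% of cases in SspA+HDM and 90.7% in mock. For the cells with 4% or more Pi16 that was so in 61.8% in SspA+HDM and 66.1% in mock. Their median distance to epithelium was also short, at 25.4 µm in SspA+HDM and 22.1 µm in mock. In the map these cells form a row on the deep side of the muscle in both sections, besides those in the dermis.

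The skin was thicker in the SspA+HDM section, with a median tissue depth of 352 and 358 µm in its strips against 214 and 222 µm in the mock strips. Members lay at a median of 161 µm below the outermost cells in SspA+HDM and 62.0 µm in mock. As a share of tissue depth that was 43.4% in SspA+HDM and 28.7% in mock, so members also lay deeper relative to the thickness. Cells with 4% or more Pi16 lay at 61.1% of tissue depth in SspA+HDM and 40.9% in mock. The limit kept out these deeper cells, 8.70% of the joined set in SspA+HDM and 67.8% in mock. Its part in the difference was not tested.

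**Figure D2:**
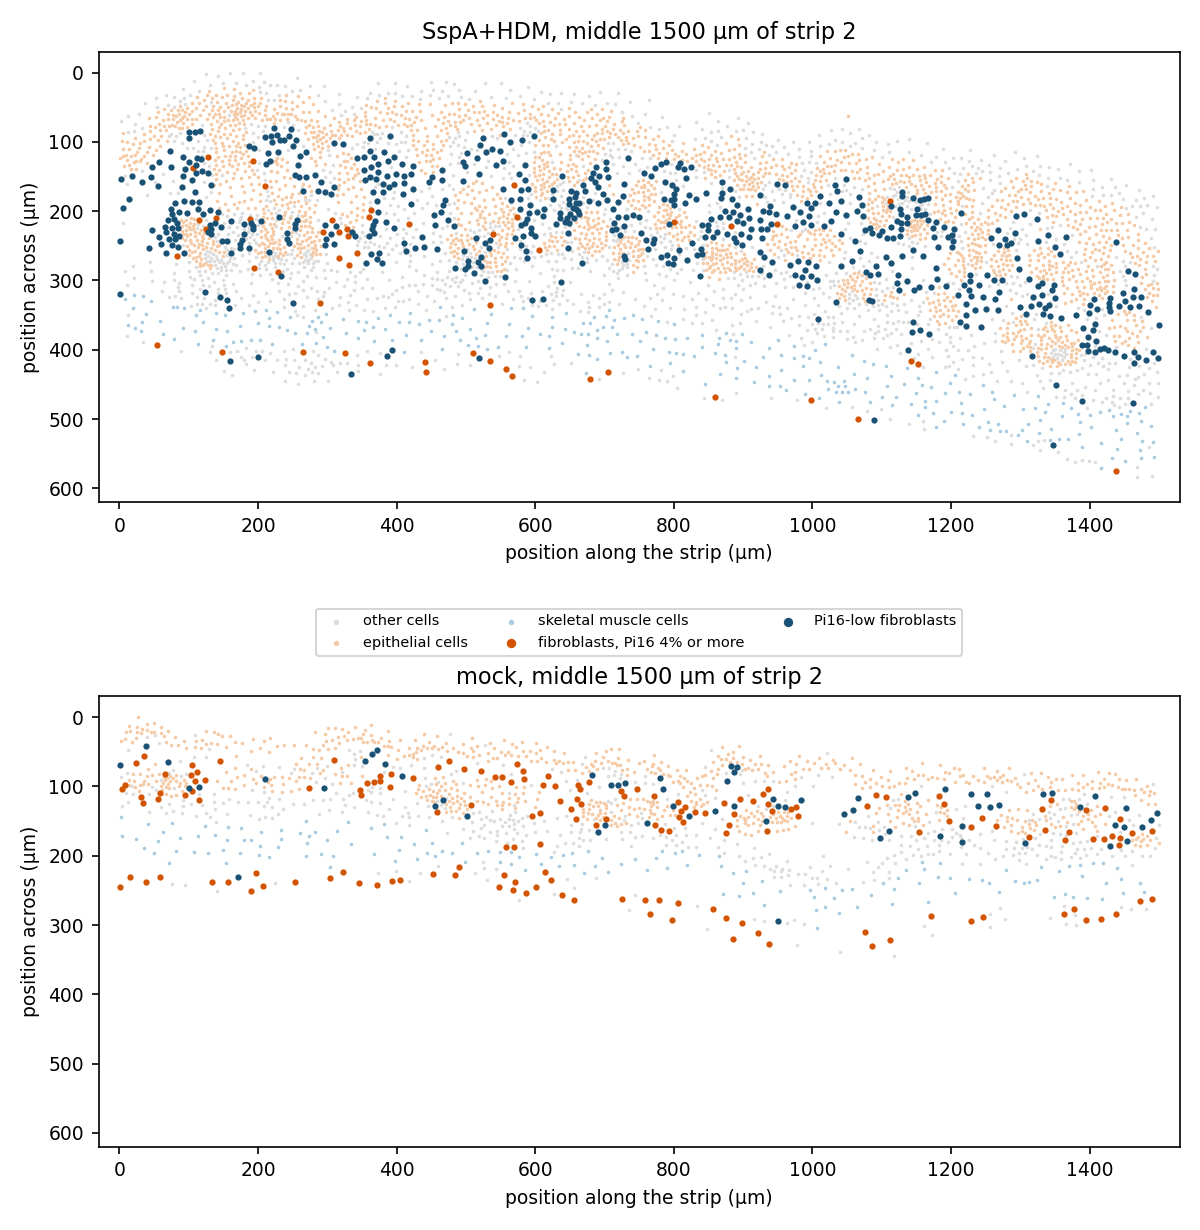
Centres of cells in the middle 1500 µm of strip 2 of the SspA+HDM section (top) and the mock section (bottom), in µm along and across the strip with the outer surface at the top; both panels have the same scale. Pi16-low fibroblasts (dark blue) fill the dermis between epithelial structures in SspA+HDM and are scattered in mock, where cells with 4% or more Pi16 (orange) outnumber them.

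Members stood closer to each other in SspA+HDM, where they also numbered 379 per mm of strip against 47.0 in mock. Cells with 4% or more Pi16 were fewer there, at 36.1 per mm against 99.2 in mock. The distance to the nearest cell depends on such numbers. The nearest other member was at a median of 10.6 µm in SspA+HDM and 19.3 µm in mock, while the nearest cell with 4% or more Pi16 was at 49.2 µm in SspA+HDM and 18.2 µm in mock. Of the cells within 30 µm, members were 30.3% in SspA+HDM and 8.31% in mock, against 12.7% of all cells in SspA+HDM and 4.16% in mock. Epithelial cells made up 34.2% of neighbours in SspA+HDM and 46.6% in mock. Of all cells they were 45.6% in SspA+HDM and 42.9% in mock. Around the cells with 4% or more Pi16 they made up 35.3% of neighbours in SspA+HDM and 39.3% in mock. Cells with more than 2 endothelial transcripts were 8.13% of neighbours in SspA+HDM and 4.14% in mock. Of all cells they were 5.65% in SspA+HDM and 3.21% in mock. Cells with at least 3 macrophage transcripts were 6.13% of neighbours in SspA+HDM and 5.06% in mock. Of all cells they were 4.004% in SspA+HDM and 3.384% in mock. Both kinds were thus a larger share of the whole SspA+HDM section too.

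Gene levels within members were compared for the 206 genes with at least 100 transcripts in the members of a section. By a size rule of 2-fold, 39 genes were higher (18.9% of genes) and 32 lower (15.5%) in SspA+HDM, and 135 were neither. The median log2 ratio over the 206 genes was 0.08. This minimum is 214 CPM in SspA+HDM and 2108 CPM in mock, so low genes could pass in SspA+HDM alone: 118 genes did, with 35 of the 39 higher and 9 of the 32 lower genes among them, and none passed in mock alone. The counts of higher and lower genes are therefore not comparable. Among the 102 genes at or above 2108 CPM in either section, a minimum added after the values were seen, 14 were higher (13.7%) and 23 lower (22.5%). Genes of the selection rule are 5 of the 32 lower and none of the 39 higher, and without them 20.7% of 188 genes were higher and 14.4% lower. For 22 of the higher and 22 of the lower genes every SspA+HDM strip was 2-fold apart from every mock strip. Without a limit on size, both SspA+HDM strips lay above both mock strips for 92 genes and below them for 69, and 45 genes overlapped. Outlines take in transcripts of neighbouring cells, so a gene was called class-enriched where its CPM in members was at least that in the other cells of the same section, in the section where members had more of it. Epithelial cells were 45.6% of all cells in SspA+HDM and 42.9% in mock, so this does not screen out transcripts of dermal neighbours. All 5 measured macrophage genes, 4 mural, 3 T cell and 2 lymphatic genes were class-enriched, as were 4 of 5 granulocyte genes. Of 127 class-enriched genes, 24 were higher (18.9%) and 20 lower (15.7%), and 16 of the 24 and 18 of the 20 exceeded the other cells in both sections. In all other cells of the sections, 14% of 335 genes were higher and 14.3% lower, and in fibroblasts with 4% or more Pi16, 12.5% of 112 genes were higher and 9.82% lower.

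**Figure D3:**
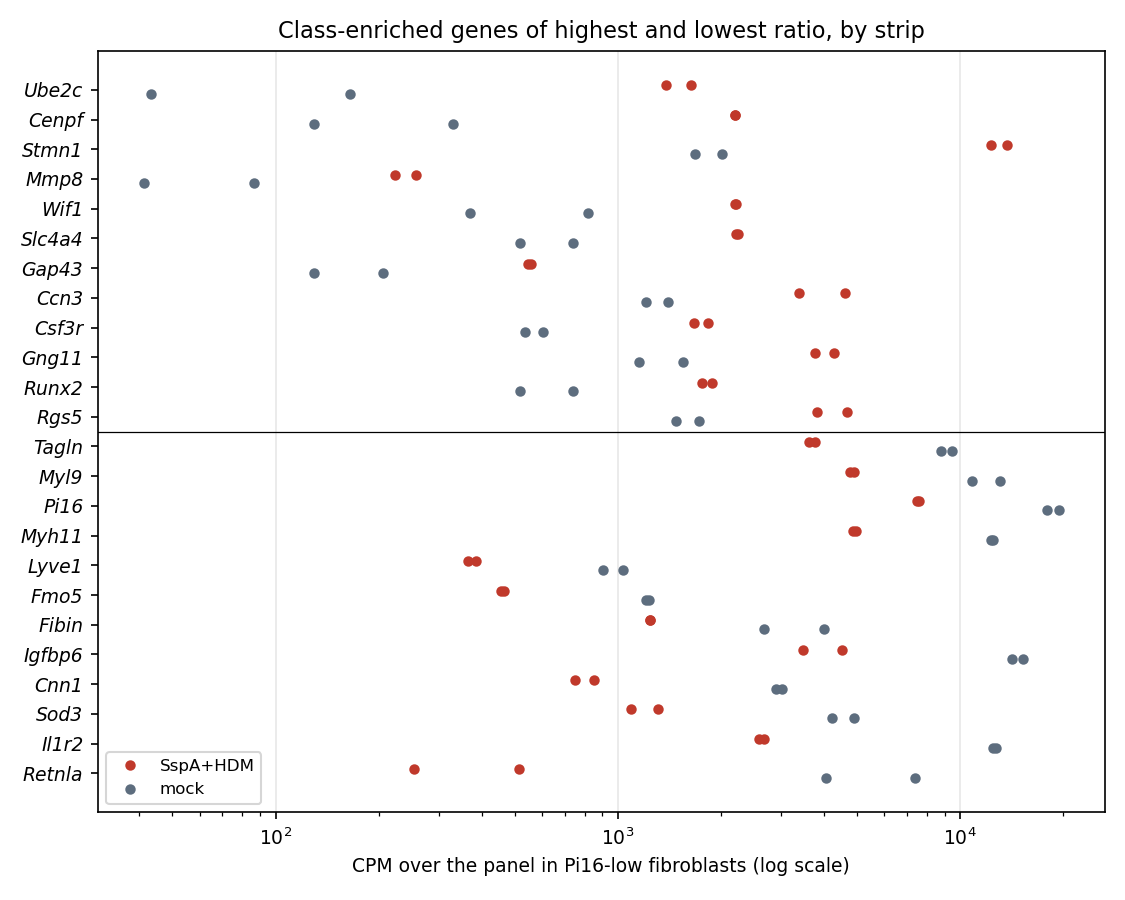
CPM over the panel in Pi16-low fibroblasts (horizontal log axis) of the 12 class-enriched genes with the highest (above the line) and the 12 with the lowest SspA+HDM to mock ratio. Each point is 1 strip; for all 24 genes the SspA+HDM strips (red) and the mock strips (grey) do not overlap, as for 161 of the 206 genes compared.

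Genes of cell division had the highest ratios among the class-enriched genes. Ube2c, a ubiquitin-conjugating enzyme of mitotic exit, stood at 1496 CPM in SspA+HDM and 105 CPM in mock, from 699 transcripts in SspA+HDM and 5 in mock, a ratio of 14.2 (6.05 to 43.9). Cenpf, a kinetochore protein made in late interphase and mitosis, stood at 2194 CPM in SspA+HDM and 232 CPM in mock, from 1025 transcripts in SspA+HDM and 11 in mock, a ratio of 9.46 (5.27 to 19). Stmn1, stathmin, which destabilises microtubules and is abundant in dividing cells, stood at 12926 CPM in SspA+HDM and 1855 CPM in mock, a ratio of 6.97 (5.65 to 8.70). These are all 3 panel genes of the division list, and each was past 2-fold. They were class-enriched through SspA+HDM alone: the 3 genes summed to 16616 CPM in SspA+HDM members and 2192 CPM in mock members, against 12454 CPM in the other SspA+HDM cells and 5252 CPM in the other mock cells. All 3 passed the minimum in SspA+HDM alone. In the joined set, with no limit on Pi16, the log2 ratio was 3.51 for Ube2c, 3.73 for Cenpf and 3.20 for Stmn1.

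By strip, Stmn1 stood at 13653 and 12294 CPM in SspA+HDM against 1684 and 2018 CPM in mock. Over the nucleus alone the log2 ratio of Stmn1 was 2.40, against 2.80 over whole outlines. Cenpf had 403 transcripts over nuclei in SspA+HDM and 2 in mock, a ratio of 17.8 (4.89 to 147). Ube2c had 239 in SspA+HDM and 0 in mock, at least 7.03-fold higher with a floor of 3 transcripts for the mock members. In members at least 30 µm from epithelium Cenpf had 158 transcripts in SspA+HDM and 3 in mock, a ratio of 4.16 (1.40 to 20.4). In the other cells of the sections the log2 ratios were 1.03 for Cenpf and 1.29 for Stmn1, smaller than in members but in the same direction.

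The share of members with a Cenpf or Ube2c transcript was compared at equal depth by drawing 60 transcripts from each cell and leaving out shallower cells, 2161 members in SspA+HDM and 288 in mock. It was 15.4% of SspA+HDM members (14.2% to 16.6%) and 1.72% of mock members (0.635% to 3.71%). Without thinning it was 17.1% in SspA+HDM and 2.20% in mock. Epithelial cells had 16.2% in SspA+HDM and 8.50% in mock, thinned alike. Skeletal muscle cells, whose fibres do not divide, had 0.495% in SspA+HDM and 0.221% in mock, at a median of 305 transcripts in SspA+HDM and 309 in mock before thinning. The share in mock members was above that of muscle but rested on 6 cells. Fibroblasts with 4% or more Pi16 had 5.87% in SspA+HDM and 1.34% in mock. Skeletal muscle lay farther from members than epithelium did, at a median of 142 µm in SspA+HDM and 76.2 µm in mock. The keratinocyte gene Krt16, thinned alike, was found in 28.0% of SspA+HDM members and 3.16% of mock members. In epithelial cells Krt16 was found in 61.1% in SspA+HDM and 10.7% in mock. The part of epithelial neighbours in the division transcripts of members was not tested.

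**Figure D4:**
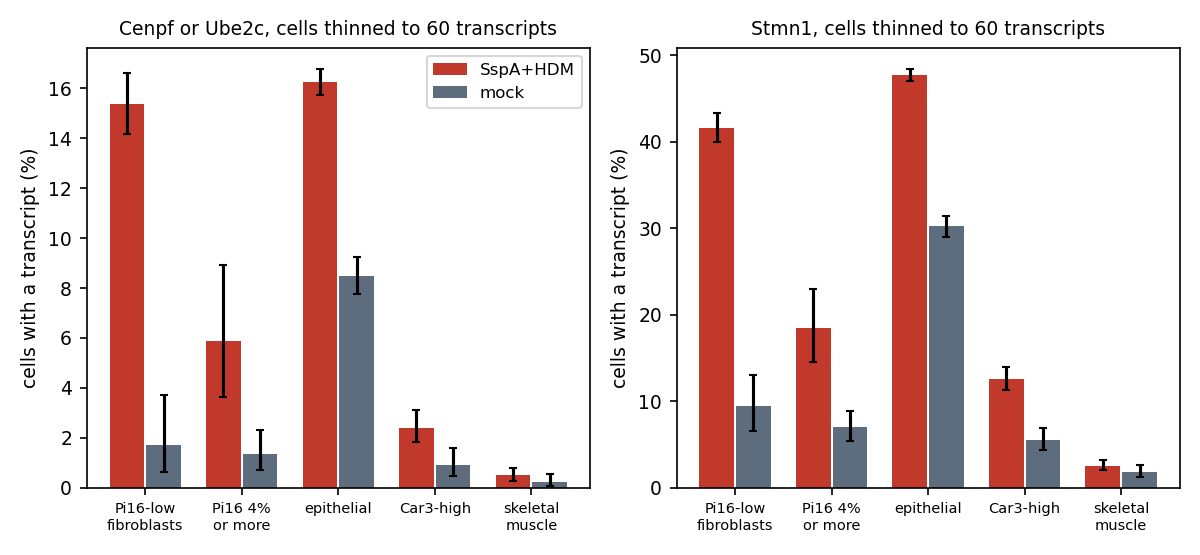
Share of cells with a transcript of Cenpf or Ube2c (left) or of Stmn1 (right), in %, after each cell was thinned to 60 transcripts, for 5 cell sets in the SspA+HDM section (red) and the mock section (grey). Bars are shares and error bars exact 95% intervals for counting error; SspA+HDM members stand at 15.4%, near the epithelial cells at 16.2%, and mock members at 1.72%.

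Members with 2 or more Cenpf or Ube2c transcripts numbered 362 in SspA+HDM, or 6.42% of members, and 1 in mock. In SspA+HDM these cells had 33076 CPM of Stmn1, against 9133 CPM in members with none. Aspn was lower in them, at 19004 against 33209 CPM, and Bgn was at 90907 against 87154 CPM. They were deeper cells, with a median of 112 against 67 transcripts, so the count of transcripts partly sorts by depth. Krt16 in the 362 cells stood at 7911 CPM, against 6925 CPM in SspA+HDM members with none. Their median distance to epithelium was 16.0 µm, against 18.3 µm.

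Asporin had the highest ratio of the measured proteoglycans outside the selection rule. This small leucine-rich proteoglycan (Aspn), which binds collagen and growth factors of the TGF-beta family, stood at 31258 CPM in SspA+HDM and 13173 CPM in mock, a ratio of 2.37 (2.19 to 2.57). It was detected in 74.0% of SspA+HDM members and 42.6% of mock members. Biglycan (Bgn), of the same family, stood at 87560.0 CPM in SspA+HDM and 51236 CPM in mock, a ratio of 1.71 (1.64 to 1.78), short of 2-fold. Syndecan-1 (Sdc1), a cell-surface heparan sulphate proteoglycan typical of epithelium, was 2.23-fold higher but not class-enriched. Of these 3 genes 2 were higher and none lower, with a median log2 ratio of 1.16; Lum, the other measured proteoglycan, is in the rule and is not counted. With no limit on Pi16, the log2 ratio was 1.28 for Aspn and 1.08 for Bgn, against 1.25 and 0.77 in members, so the difference was at least as large in fibroblasts as a whole.

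Of the 3 measured elastic microfibril genes outside the selection rule none was past 2-fold, with a median log2 ratio of 0.08; Mfap4 and Dpt are not counted. The largest ratio was that of fibulin-5 (Fbln5), which organises elastic fibres, with 17337 CPM in SspA+HDM and 10370 CPM in mock, a ratio of 1.67 (1.53 to 1.83). Mfap5, a microfibril protein typical of adventitial fibroblasts, stood at 2194 CPM in SspA+HDM and 2845 CPM in mock. Thbs4, a matricellular thrombospondin, stood at 1939 CPM in SspA+HDM and 1834 CPM in mock.

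Genes of adventitial and fascial fibroblasts were lower in SspA+HDM members. All members had passed the Pi16 limit, but the median Pi16 share of a member was 0% in SspA+HDM and 1.82% in mock. Of the 5 measured apart from Pi16, 3 were past 2-fold lower and none higher, with a median log2 ratio of -1.24. The 5 genes summed to 22996 CPM in SspA+HDM members and 58254.5 CPM in mock members. In the pool of all other cells they summed to 8145 CPM in SspA+HDM and 23578 CPM in mock. That pool held 537 fibroblasts with 4% or more Pi16 in SspA+HDM and 1342 in mock, so its mix of cells differed. Pi16 is in the selection rule and is given as a description, with 7521 CPM in SspA+HDM and 18652 CPM in mock. Igfbp6, which binds insulin-like growth factor with a preference for IGF-II, stood at 4032 CPM in SspA+HDM and 14690 CPM in mock, 3.64-fold lower (3.34 to 3.98). Pcolce2, an enhancer of procollagen processing, stood at 9805 CPM in SspA+HDM and 23163 CPM in mock, 2.36-fold lower (2.21 to 2.52). Complement C3 stood at 6571 CPM in SspA+HDM and 11803 CPM in mock, 1.80-fold lower (1.64 to 1.97).

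Retnla, a secreted resistin-like protein known from type 2 immune responses in mice, had the lowest ratio of all measured genes. It stood at 394 CPM in SspA+HDM and 5754 CPM in mock, 14.6-fold lower (12.1 to 17.7), from 184 transcripts in SspA+HDM and 273 in mock. By strip it was 253 and 516 CPM in SspA+HDM against 4058 and 7371 CPM in mock. It was carried by few cells, 1.7% of SspA+HDM members and 13.1% of mock members. With no limit on Pi16 the log2 ratios were -4.68 for Retnla, -2.19 for Igfbp6, -1.45 for Pcolce2 and -1.41 for C3.

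Further class-enriched genes were lower. Sod3, the extracellular superoxide dismutase, stood at 1211 CPM in SspA+HDM and 4574 CPM in mock, 3.78-fold lower (3.21 to 4.42). In members at least 30 µm from epithelium its log2 ratio was -0.79, short of 2-fold. Il1r2, a decoy receptor for interleukin-1, stood at 2633 CPM in SspA+HDM and 12583 CPM in mock, 4.78-fold lower (4.33 to 5.27), with 2579 and 2680 CPM in the SspA+HDM strips against 12736 and 12436 CPM in the mock strips. It was detected in 16.7% of SspA+HDM members and 49.7% of mock members. Neutrophils also express Il1r2, and the granulocyte genes are given below.

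Fibin, a secreted factor, stood at 1241 CPM in SspA+HDM and 3351 CPM in mock, 2.70-fold lower (2.25 to 3.22), with a log2 ratio of only -0.17 in members at least 30 µm from epithelium. Fmo5, a flavin-containing monooxygenase, was 2.66-fold lower (1.95 to 3.57). S100a4, a calcium-binding protein of fibroblasts and leukocytes, stood at 16357 CPM in SspA+HDM and 36462 CPM in mock, 2.23-fold lower (2.11 to 2.35), and had a log2 ratio of -0.69 with no limit on Pi16. Timp3, an inhibitor of metalloproteinases held in the matrix, stood at 6590.2 CPM in SspA+HDM and 13046 CPM in mock, 1.98-fold lower (1.81 to 2.16). Of the 5 measured genes of matrix proteolysis, 1 was higher (Mmp8) and 1 lower (Pcolce2), with a median log2 ratio of -0.61. Of the 2 measured collagen-related genes 1 was lower, again Pcolce2, and the other, the basal keratinocyte collagen Col17a1, stood at 2074 CPM in SspA+HDM and 3035 CPM in mock.

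Contractile genes of the myofibroblast list were lower in SspA+HDM members, and the summed mural list was lower with them, at 13786 CPM in SspA+HDM and 26050.1 CPM in mock. Myh11, the smooth muscle myosin heavy chain, stood at 4921 CPM in SspA+HDM and 12372 CPM in mock, 2.51-fold lower. Tagln and Myl9, smooth muscle proteins of the actin cytoskeleton and the myosin light chain, were both 2.47-fold lower, and calponin (Cnn1) was 3.67-fold lower. Of the 4 measured genes of the myofibroblast list 3 were lower and 1, Aspn, higher. Without the members in which mural and smooth muscle genes made up at least 10% of transcripts, the log2 ratios were -0.28 for Myh11, -0.05 for Tagln, -0.06 for Myl9 and -0.65 for Cnn1, none past 2-fold. The genes that removed these members were Myh11, Tagln, Myl9, Cnn1, Rgs5, Higd1b and Mylk. Smaller ratios of the contractile genes were thus built in, and where their transcripts came from was not tested. The log2 ratios with no limit on Pi16 were -0.48 for Myh11, -0.33 for Tagln, -0.49 for Myl9 and -1.12 for Cnn1, and over the nucleus -0.78 for Myh11, -0.27 for Tagln and -0.55 for Myl9. Rgs5, a pericyte gene, was higher instead, with 4281 CPM in SspA+HDM and 1602 CPM in mock, a ratio of 2.67 (2.13 to 3.41), and its log2 ratio was 1.33 without those members and 2.07 with no limit on Pi16.

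Signals of the Wnt, BMP and IGF pathways went in different directions. Wif1, a secreted Wnt inhibitor found in papillary fibroblasts and the hair papilla, stood at 2211 CPM in SspA+HDM and 590 CPM in mock, a ratio of 3.75 (2.58 to 5.67) from 1033 transcripts in SspA+HDM and 28 in mock; its log2 ratio was 2.66 with no limit on Pi16, against 1.91 in members. Nbl1, a secreted BMP antagonist, stood at 30395 CPM in SspA+HDM and 20949.7 CPM in mock, a ratio of 1.45. Sfrp1, a secreted Wnt inhibitor, stood at 2982 CPM in SspA+HDM and 3098 CPM in mock, and the ligand Bmp2 at 334 CPM in SspA+HDM and 443 CPM in mock. Of the 5 measured genes of this list 1 was higher (Wif1) and 1 lower (Igfbp6), with a median log2 ratio of -0.06. Wif1 was also the only measured gene of the papillary list and of the hair papilla list.

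Inflammatory genes were mixed as well. Tnfaip6, a hyaluronan-binding protein induced by inflammatory cytokines, stood at 11179 CPM in SspA+HDM and 5648 CPM in mock, a ratio of 1.98 (1.75 to 2.25), just under 2-fold. With no limit on Pi16 its log2 ratio was 1.25. Haptoglobin (Hp) was 2.20-fold higher but not class-enriched, and the chemokine Ccl12 was 2.16-fold higher (1.33 to 3.75) from 17 mock transcripts. Ccl9, another chemokine, stood at 4441 CPM in SspA+HDM and 7124 CPM in mock. The scavenging chemokine receptor Ackr3 stood at 2061 CPM in SspA+HDM and 1749 CPM in mock. Of the 8 measured genes of the list 2 were higher and 1, Il1r2, lower, with a median log2 ratio of 0.09. Of the 2 interferon-linked genes, Rsad2, an antiviral enzyme, was 2.58-fold higher (1.34 to 5.72) from 9 mock transcripts, and the immunoproteasome subunit Psmb8 stood at 4118 CPM in SspA+HDM and 4026 CPM in mock.

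The remaining class-enriched genes with high ratios have no shared role. Slc4a4, a sodium bicarbonate cotransporter, stood at 2226 CPM in SspA+HDM and 632 CPM in mock, a ratio of 3.52 (2.45 to 5.24); its log2 ratio was 0.70 with no limit on Pi16. Ccn3, a matricellular protein, stood at 4039 CPM in SspA+HDM and 1307 CPM in mock, a ratio of 3.09 (2.40 to 4.05). Gng11, a G protein gamma subunit, was 2.97-fold higher (2.31 to 3.87), Runx2, a transcription factor best known from bone, 2.87-fold higher (2.0 to 4.28), and Gap43, a growth-associated protein of neurites, 3.28-fold higher (1.64 to 7.67) from 8 mock transcripts. In members at least 30 µm from epithelium Runx2 had 192 transcripts in SspA+HDM and 1 in mock, a ratio of 15.1 (2.69 to 601).

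Granulocyte genes were higher within member outlines apart from Il1r2 and Mmp9. Csf3r, the receptor for granulocyte colony-stimulating factor, was 3.07-fold higher (2.09 to 4.69), and Mmp8, the neutrophil collagenase, 3.79-fold higher (1.26 to 18.7) from 112 transcripts in SspA+HDM and 3 in mock, and had a log2 ratio of 2.86 with no limit on Pi16, against 1.92 in members. Cxcr2, a neutrophil chemokine receptor, had 245 transcripts in SspA+HDM and 0 in mock, at least 8.29-fold higher with a floor of 3 transcripts for the mock members. Mmp9 stood at 651 CPM in SspA+HDM and 632 CPM in mock. Of the 5 genes 3 were higher and 1 lower. In the other cells of the sections the log2 ratio was 1.54 for Csf3r and 3.74 for Cxcr2. Their part in the outlines of members was not tested.

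Other marker lists differed as follows. Of 5 macrophage or monocyte genes 1, Ms4a7, was higher, at 4602 CPM in SspA+HDM and 2150 CPM in mock, and none was lower. Without the members that had at least 3 macrophage transcripts, 31 genes were higher and 29 lower, and the share ratio was 2.87. Of 5 keratinocyte genes outside the selection rule 1, Krt16, was higher. Krt16, a keratin of stressed and thickened epidermis, stood at 7153 CPM in SspA+HDM members and 464 CPM in mock members, a ratio of 15.4, against 35762 CPM in the other SspA+HDM cells and 1671 CPM in the other mock cells. No Krt16 transcript lay in 66.2% of SspA+HDM members and 97.3% of mock members. The 5 skeletal muscle genes are all limited by the rule and are given as a description, with a summed level of 10526 CPM in SspA+HDM members and 24364 CPM in mock members, against 83296 CPM in the other SspA+HDM cells and 163863 CPM in the other mock cells.

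Both lymphatic genes were lower, Lyve1 at 375 CPM in SspA+HDM and 970 CPM in mock (2.59-fold, 1.83 to 3.60) and Mmrn1 at 1149 CPM in SspA+HDM and 2318 CPM in mock. The log2 ratio of Lyve1, -1.37 in members, was -2.06 with no limit on Pi16 and -0.49 with no quality filter, where it was short of 2-fold. Of 4 mural genes 3 were lower and 1 higher. Outside the rule, of 3 adipocyte genes, 1 blood endothelial gene and 3 T cell genes none was past 2-fold. Cpa3 had a ratio of 1.41 (1.18 to 1.69).

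The 10 genes of highest level in either section, apart from those described, showed ratios below 2-fold. Serpina3n, a secreted protease inhibitor, stood at 31673 CPM in SspA+HDM and 23732 CPM in mock, a ratio of 1.33 (1.26 to 1.42). Ccdc80, a matrix protein of fibroblasts, stood at 26902 CPM in SspA+HDM and 21371 CPM in mock. Annexin A2 (Anxa2), a membrane-binding protein, stood at 41482 CPM in SspA+HDM and 44028 CPM in mock, and cathepsin S (Ctss), a protease of phagocytes, at 19751 CPM in SspA+HDM and 19306 CPM in mock.

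Within each section, members also differed with their distance from epithelium. They were split at the section's median distance, into 2818 nearer and 2818 farther cells in SspA+HDM and 318 and 318 in mock. The 6 genes nearest to epithelium by the smaller of the differences in the 2 sections were Krt13, Wif1, Sostdc1, Coch, Fxyd3 and Col17a1, of which only Wif1 and Coch were class-enriched. The 6 farthest were F3, Myoz2, Hrc, Retnla, Myoz1 and Pgam2, of which only Retnla was class-enriched and Myoz2, Hrc, Myoz1 and Pgam2 are genes of striated muscle. The keratinocyte list, with the 4 epithelial genes of the rule, was lower in members at greater distance, at 43409, 28744, 22324 and 6381 CPM in SspA+HDM and 38432, 19799, 9360.1 and 5714 CPM in mock at under 15, 15 to 30, 30 to 60 and over 60 µm. The skeletal muscle list, all of it in the rule, was highest over 60 µm, at 69738 CPM in SspA+HDM and 126857 CPM in mock.

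Class-enriched genes alone, a choice made after the values were seen, gave Wif1, Coch, Mamdc2, Aqp1, Cenpf and Aplp1 near epithelium. Some mock values rest on few transcripts, in nearer and farther members 8 and 3 for Cenpf and 6 and 5 for Aplp1. For Wif1 they were 25 and 3, so the mock direction of Cenpf and Aplp1 is not secure. Wif1 stood at 3719 CPM in nearer and 918 CPM in farther members in SspA+HDM, and at 1196 and 113 CPM in mock. Coch, cochlin, a secreted matrix protein, stood at 7136 CPM in nearer and 1984 CPM in farther members in SspA+HDM, and at 5452 and 264 CPM in mock. In the 15 to 30 µm range Coch was at 3213 CPM in SspA+HDM, from 591 transcripts, and at 213 CPM in mock, from 4 transcripts. Both genes were thus higher near epithelium in both sections, and both were higher in SspA+HDM than in mock from 15 to 30 µm, with Wif1 at 1506 CPM in SspA+HDM and 107 CPM in mock.

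Far from epithelium the class-enriched genes included Retnla, C3, Cd300lf, C5ar1 and Ccl9. C3 stood at 2766, 5290.0, 7058 and 33632 CPM in SspA+HDM and at 6899, 13235, 19641 and 18667 CPM in mock over the 4 ranges of distance. It was lower in SspA+HDM in the first 3 ranges and higher in the last, which held 221 SspA+HDM and 25 mock members. Retnla over 60 µm stood at 2637 CPM in SspA+HDM and 42667 CPM in mock. The adipocyte list, which holds Car3 of the rule, stood at 7981, 13048, 20233 and 56422 CPM over these ranges in SspA+HDM. In mock the adipocyte list stood at 15843, 20813, 46187 and 38476 CPM. The macrophage list stood at 14032, 24221, 27385 and 21976 CPM in SspA+HDM and 15996, 22414, 15958 and 9524 CPM in mock. The part of such cells in the levels of the genes far from epithelium was not tested.

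Pi16 in members was level with distance up to 60 µm in SspA+HDM, at 6965, 6926 and 6928 CPM, and was 15758 CPM beyond it, while in mock it ran between 16354 and 20952 CPM. Aspn stood at 33206, 32528, 27279 and 24059.9 CPM in SspA+HDM against 15996, 9499, 14424 and 15238 CPM in mock, higher in SspA+HDM in each range. Cenpf was highest under 15 µm in SspA+HDM, at 3064 CPM, and 521 CPM over 60 µm; mock had at most 8 transcripts in a range. Fbln5 was lower at greater distance in both sections and stood at 5991 CPM in SspA+HDM and 5714 CPM in mock over 60 µm.

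**Figure D5:**
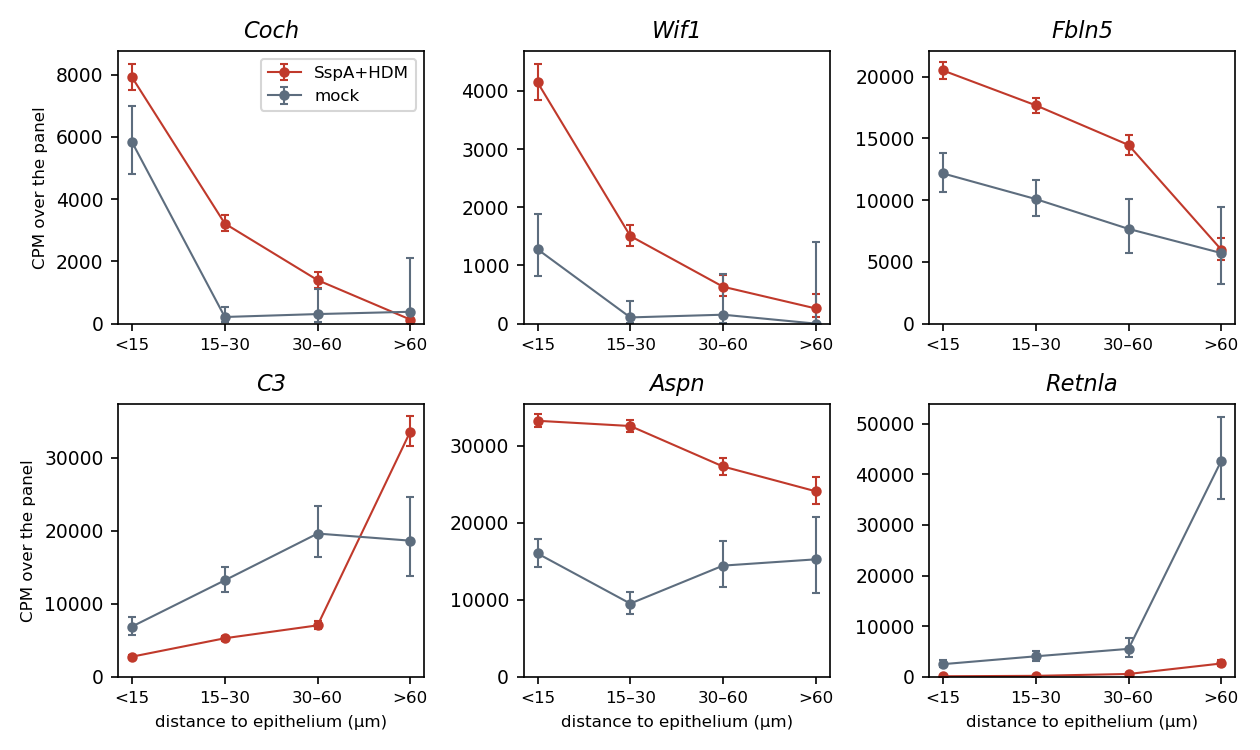
CPM over the panel of 6 class-enriched genes in Pi16-low fibroblasts by distance to the nearest epithelial cell (horizontal axis, µm), in the SspA+HDM section (red) and the mock section (grey). Points are levels and bars exact 95% Poisson intervals for counting error; Coch and Wif1 are highest near epithelium, C3 and Retnla highest beyond 60 µm in SspA+HDM, Aspn higher in SspA+HDM in each range, and the last mock range holds 25 cells.

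F3, tissue factor, which starts blood coagulation, was the 1 gene past 2-fold in opposite directions in the cell sets on either side of the Pi16 limit. In Pi16-low cells it stood at 646 CPM in SspA+HDM and 1370 CPM in mock, 2.12-fold lower (1.60 to 2.78). In cells with 4% or more Pi16 it stood at 3856 CPM in SspA+HDM and 934 CPM in mock, a log2 ratio of 2.05. With both sets joined the log2 ratio was -0.14. F3 was not class-enriched in the Pi16-low cells, and in them it was highest over 60 µm from epithelium, at 4460 CPM in SspA+HDM and 11810 CPM in mock, where skeletal muscle genes were highest too; their part in the difference was not tested.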

How the data were processed

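For each section there were 2 tables. In one the authors listed each decoded transcript with its gene, position, cell and qv, a quality score per the headers; the other gave outlines of cells. The deposited scores ran from 5.28 to 40, so transcripts below 20 had been kept. Positions were taken as µm. Software and version were not given in the sources used here. Gene transcripts with a score of at least 20 (8124205 in SspA+HDM and 2461475 in mock; 97.6% and 94.5% in cells) were counted per cell, and cells with at least 20 were kept. The highest control feature had 127 transcripts in SspA+HDM and 34 in mock.

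No doublet caller was run and no cells were clustered. Members were found by the stated rule. Strips are groups of cells linked within 100 µm with at least 5% of a section's cells. CPM are over the panel, so a ratio is relative to the other panel genes; counting transcripts per member cell instead moved the median log2 ratio to 0.24, against 0.08. Ratios are SspA+HDM over mock with exact conditional binomial intervals, and shares have exact Clopper-Pearson intervals. The selection and the ratios were tested on simulated data. Distances are between outline centres; the edges of the tissue, for its depth, were percentiles 2 and 98 of the cells in 100-µm bins along a strip.

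Genes named in the text are the class-enriched genes with the 12 highest and 12 lowest ratios, list members, the 10 highest levels per section, the 6 genes nearest to and farthest from epithelium, and genes of opposite direction across the Pi16 limit. The members, lists and rules were chosen with earlier results of these data known. The reticular fibroblast and mesenchymal transcription factor lists had 0 genes on the panel. A few genes that the rules name are not reported here. RefSeq held 378 of the 379 names as symbols and 1 as a synonym. Computation used Python 3.11.15, numpy 2.4.6, pandas 2.3.3 and scipy 1.17.1.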

Additional observations from a re-analysis of the deposited data

Results flagged for a closer look

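The share of Pi16-low fibroblasts and the share of cells on the other side of the Pi16 limit went in opposite directions between the sections. The SspA+HDM to mock ratio was 3.06 for Pi16-low cells and 0.138 for cells with 4% or more Pi16, and both strips of each section lay on the same side. The difference between these ratios was not tested, and the limit itself divides the cells.

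F3 had a log2 ratio of -1.08 in Pi16-low cells and of 2.05 in cells with 4% or more Pi16. The difference was not tested.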

How the results depend on the processing

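The share ratio, 3.06, was 4.0 with the 3 marker genes at 15% or more, 2.76 with cells thinned to 60 transcripts, 3.42 without members rich in mural genes and 1.08 with no limit on Pi16. The difference in median distance to epithelium, 2.21 µm farther in SspA+HDM, was -0.96 µm with no limit on Pi16, where members lay nearer in SspA+HDM. The 39 higher genes were 22 over the nucleus and 24 among class-enriched genes, where fewer genes were compared. The 32 lower genes were 21 with no limit on Pi16, 17 over the nucleus, 16 at least 30 µm from epithelium and 20 among class-enriched genes. With genes at or above the CPM of 100 mock transcripts, a minimum of equal level in both sections, 14 were higher and 23 lower, so the order of the counts turned. Leaving out 1 strip at a time gave share ratios of 2.99 to 3.14, 30 to 40 higher genes and 25 to 32 lower genes. Without mock strip 1, ratios were 9.08 (3.53 to 33.4) for Ube2c, 5.97 (3.13 to 13.1) for Wif1 and 5.82 (1.02 to 232) for Mmp8. Without mock strip 2 they were 34.7 (6.20 to 1371) for Ube2c and 16.9 (5.78 to 82.3) for Cenpf, from 1 and 3 mock transcripts. Without SspA+HDM strip 2 the ratio of Retnla was 0.044. Not all of the 24 class-enriched genes with the highest and lowest ratios had a value in each alternative. Over the nucleus 15 stayed past 2-fold and 3 fell short, and at least 30 µm from epithelium 16 stayed and 3 fell short. Only 17 had a value at the minimum of equal level, and the rest went unchecked in these settings. Of the genes with a value, none changed direction in the alternatives run. Those no longer past 2-fold, besides those named above, were Lyve1 with no quality filter (-0.49), Slc4a4 at least 30 µm from epithelium (0.85), Myh11 (-0.48), Myl9 (-0.49) and Tagln (-0.33) with no limit on Pi16, and Myh11 (-0.78), Myl9 (-0.55) and Tagln (-0.27) over the nucleus. The cause was not tested. The minimum of equal level and the removal of members rich in mural or macrophage genes were chosen after seeing the data. No paired analysis was possible because each treatment had 1 section. Mock members held 47447 transcripts, which limits every ratio of a gene with few of them. Segmentation, the thickness of the skin and the treatment cannot be told apart.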
